A study of Mus musculus with 2 samples.

Results

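The genes described here make sterols and fatty acids, control that synthesis, or move the products. They comprise 18 enzymes of sterol synthesis, 5 regulators, 3 genes of sterol efflux, a pair of genes for sterol transfer and esterification, 10 genes of fatty acid synthesis and 4 of fatty acid binding and activation. Of these 42 genes, 39 had at least 1 probe set, a group of short probes read as a single value, that names only that gene in the platform's annotation. They carried 92 of the array's 45037 probe sets other than controls, and were set against 18193 genes in all. Expression of Acat2, Nr1h2 and Soat1 was not analysed here. One group held activated CD8+ T cells, proliferating and collected 72 h after activation, and the other held naive CD8+ T cells. Both came from pmel-1 mice, whose T cells carry the pmel-1 receptor as a transgene, so both groups share it. The sources used here do not give the age of the mice, the stimulus or the purification method. Each group was 1 RNA pool from 4 independent experiments on 1 whole-genome mouse array, so no value below has a replicate error or a test, and activation and array cannot be told apart.

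Cells build cholesterol from acetyl-CoA through mevalonate, isoprenoids, squalene and lanosterol. When membrane sterol is scarce, the escort protein SCAP carries SREBP transcription factors to the Golgi, where proteases free them to switch on these enzymes, and INSIG proteins hold SCAP back when sterol is plentiful. When sterol is in excess, oxysterols activate the LXR receptors, which switch on the efflux pumps ABCA1 and ABCG1. In T cells, growth before division is known to draw on new membrane lipid, and both arms have been studied as part of activation.

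Values are the authors' intensities on a linear scale. A gene was represented by its brightest probe set and counts as measured when at least 1 array reached 100. It was called higher or lower when its arrays differed at least 1.4-fold, with values under 100 raised to 100, and by more than 100 units. Where only 1 array reached 100 the fold is a bound, written "at least". All 39 genes were measured, of which 32 were called higher in activated cells, 2 lower and 5 neither. Among all 9842 measured genes, 23.7% were called higher and 20.6% lower, and the median log2 ratio was 0.01. Since activated and naive cells were compared in bulk, more RNA per cell and more cells with that RNA cannot be told apart.

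The labelled cell type was checked on both arrays. All 8 CD8 T cell markers were abundant, from 1171 to 6597 in activated cells and from 1524 to 7725 in naive cells. All 8 were below their naive value, and Cd8b1, Cd2 and Lat were called lower, Cd8b1 by 2.17-fold. The brightest Cd8a probe set missed the rule, although 4 of the 5 for that gene were called lower. Several transcripts of other blood cells were more abundant on the naive array. All 4 MHC class II genes were called lower in activated cells, with summed intensities of 863 in activated and 7103 in naive cells. Of the B cell markers 4 of 7 were measured and 2 called lower (sums of 479.9 in activated and 1069 in naive cells), and Blnk and Pax5 lay under 100 on both arrays. Of the myeloid and dendritic markers 3 of 8 were measured and 2 called lower (sums of 699 and 1279.6 in activated and naive cells), while Itgam, Cd14, Adgre1, Fcgr3 and S100a8 lay under 100 on both. Of 3 plasma cell markers, Jchain was at 45.2 in activated and 1768 in naive cells and Sdc1 at 301 and 63.5. Among the erythroid markers, Hbb-b2 was at 1 in activated and 6852 in naive cells, although its other measured probe set was not called. Neither Alas2 (1 in activated and 127 in naive cells) nor Slc4a1 (105 and 107) was called, and Hba-a1 lay under 100 on both arrays. No platelet, fat cell or hepatocyte marker was called in either direction, and all 3 hepatocyte markers with a probe set lay under 100. The part of these cells in the values below was not tested.

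Enzymes of sterol synthesis were higher in activated cells along the whole pathway. Of 17 measured, 16 were called higher and none lower, and 14 were at least 4-fold higher, a size reached by 3.27% of all measured genes. The median log2 ratio of the 17 was 2.63, which is 6.19-fold, with a range of 1.56-fold to 17.3-fold. Their intensities ran from 178 to 7044 in activated cells and from 63.1 to 760.1 in naive cells. All 17 were above their naive value. Of the 100 genes with the highest ratios on these arrays, 5 were sterol enzymes and 6 belonged to the genes described here.

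Since the sterol enzymes moved together, their promoters are shown as RefSeq gives them for mouse build GRCm38.p6, each from 250 bases before to 50 after a start site and read 5′ to 3′. Hmgcs1, Cyp51 and Idi1 stand for strongly raised enzymes, Mvk for the enzyme that missed the rule, and Abca1 for the lower efflux pump. Capitals mark the sterol regulatory element TCACNCCAC, the letters that SREBP factors are known to bind, and the CCAAT box, which is bound by NF-Y, a factor known to work beside SREBP at such promoters. Both were searched on either strand, so a CCAAT box can read ATTGG.
Hmgcs1 promoter, chr13:119690101-119690400, plus strand: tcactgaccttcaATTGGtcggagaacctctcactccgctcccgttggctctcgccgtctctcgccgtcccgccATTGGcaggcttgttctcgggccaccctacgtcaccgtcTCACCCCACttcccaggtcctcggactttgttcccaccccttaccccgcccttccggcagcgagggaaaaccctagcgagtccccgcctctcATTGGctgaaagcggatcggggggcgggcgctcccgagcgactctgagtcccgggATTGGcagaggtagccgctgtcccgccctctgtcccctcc
Cyp51 promoter, chr5:4104648-4104947, minus strand: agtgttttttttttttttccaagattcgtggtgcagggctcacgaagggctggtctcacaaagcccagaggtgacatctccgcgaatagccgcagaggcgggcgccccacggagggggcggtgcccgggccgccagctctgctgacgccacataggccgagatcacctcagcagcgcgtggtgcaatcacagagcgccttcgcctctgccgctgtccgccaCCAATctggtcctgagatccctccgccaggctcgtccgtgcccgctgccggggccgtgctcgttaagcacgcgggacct
Idi1 promoter, chr13:8885356-8885655, plus strand: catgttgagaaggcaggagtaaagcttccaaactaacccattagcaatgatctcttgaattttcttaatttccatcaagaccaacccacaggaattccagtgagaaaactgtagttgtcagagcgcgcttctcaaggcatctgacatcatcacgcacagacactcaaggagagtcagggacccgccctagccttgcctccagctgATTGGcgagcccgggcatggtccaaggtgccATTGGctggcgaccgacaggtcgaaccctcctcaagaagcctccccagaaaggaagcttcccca
Mvk promoter, chr5:114444019-114444318, plus strand: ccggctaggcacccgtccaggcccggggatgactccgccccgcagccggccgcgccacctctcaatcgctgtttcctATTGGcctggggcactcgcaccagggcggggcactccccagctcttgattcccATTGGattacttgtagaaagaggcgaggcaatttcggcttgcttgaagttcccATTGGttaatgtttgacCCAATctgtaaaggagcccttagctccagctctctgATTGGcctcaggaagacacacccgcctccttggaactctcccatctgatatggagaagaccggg
Abca1 promoter, chr4:53159846-53160145, minus strand: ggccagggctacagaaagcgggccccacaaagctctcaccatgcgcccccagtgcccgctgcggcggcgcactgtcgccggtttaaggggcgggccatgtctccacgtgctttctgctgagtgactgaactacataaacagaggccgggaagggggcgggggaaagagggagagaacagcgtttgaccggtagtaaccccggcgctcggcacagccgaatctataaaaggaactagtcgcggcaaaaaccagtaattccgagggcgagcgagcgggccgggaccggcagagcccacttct

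Promoters were listed for 33 of the 42 genes, 15 of them sterol enzymes, and Acat2, Nr1h2 and Soat1 are among the 33. A CCAAT box stood in at least 1 promoter of 14 of these 15 enzymes, 93.3%, all but Acat2, against 41.1% of all 27025 genes with a promoter off the chromosome left out. The 4 CCAAT boxes of Hmgcs1 begin 237, 176 and 45 bases before the start site and 11 bases into the transcript, counted on the printed strand. Mvk, the enzyme that missed the size rule, held 5 CCAAT boxes, the most of the 5 printed promoters. Cyp51 held 1, beginning 29 bases before the start site, and Idi1 held 2. Abca1 had no CCAAT box in this window. The exact element TCACNCCAC was in 1 member promoter, that of Hmgcs1, beginning 137 bases before the start site as TCACCCCAC, and in 1.44% of all genes. A GC box (GGGCGG, either strand) also stood in 14 of the 15 sterol enzymes, 93.3%, against 38.2% of all genes, and the E-box CACGTG in 3 of 15, 20.0%, against 8.09%. The LXR repeat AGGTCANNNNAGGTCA was in none of the 33 genes and in 0.0148% of all genes. In fatty acid synthesis the CCAAT box was in 4 of 7 genes, among them Fasn, where a forward and a reverse box overlap. These matches describe letters only, and a window without a match says nothing of a factor.

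At the entry of the pathway, Hmgcs1, which makes HMG-CoA, was at 7044 in activated and 653 in naive cells, 10.8-fold higher. Among its 5 probe sets 4 were called higher, with log2 ratios from 2.63 to 3.43, and the other, at 111 and 50.4 in activated and naive cells, was not called, with only a bound because its naive value lay under 100. The mevalonate kinases and decarboxylase follow. Mvk, mevalonate kinase, was at 178 in activated and 114 in naive cells, a difference too small for the rule, although its other probe set (223 in activated and 45.6 in naive cells) passed it. Pmvk, which adds the next phosphate, was at 831 in activated and 122 in naive cells, 6.84-fold higher. Mvd, the decarboxylase that yields isopentenyl diphosphate, was at 514 in activated and 92.8 in naive cells, at least 5.14-fold higher. Of these first 4 genes, Mvk was the only one whose brightest probe set missed the rule.

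The isoprenoid steps held some of the highest ratios of the pathway. Idi1, which isomerises isopentenyl diphosphate, was at 3924 in activated and 234 in naive cells, 16.8-fold higher and rank 17 among 9842 measured genes. Its second probe set gave a log2 ratio of 3.17 beside 4.07. Fdps, which makes farnesyl diphosphate, the branch point to prenylated proteins and other isoprenoids, was at 3211 in activated and 333 in naive cells, 9.65-fold higher. Its other probe set lay under 100 on both arrays.

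Squalene formation and oxidation, the first steps committed to sterols, were also higher. Fdft1, squalene synthase, was at 1797 in activated and 226 in naive cells, 7.94-fold higher, and its measured probe sets gave nearly equal log2 ratios of 2.99. Sqle, squalene epoxidase, which is often described as a second control point of the pathway, was at 1894 in activated and 136.5 in naive cells, 13.9-fold higher and rank 29. Lss, which closes the rings to form lanosterol, was at 978 in activated and 145 in naive cells, 6.77-fold higher. A further Lss probe set, at 210.3 and 79.4 in activated and naive cells, was also called higher, with a bound only.

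After lanosterol, demethylation held the highest ratio of the sterol enzymes. Cyp51, the lanosterol demethylase, was at 3540.5 in activated and 204 in naive cells, 17.3-fold higher and rank 14 of all measured genes. Its second measured probe set, at 1688 in activated and 92.8 in naive cells, was at least 16.9-fold higher. Msmo1, the sterol methyl oxidase, was at 2910.0 in activated and 470.2 in naive cells, 6.19-fold higher. Its partners in methyl group removal, Nsdhl and Hsd17b7, were 4.77-fold higher (1564 in activated and 328 in naive cells) and at least 4.49-fold higher (449 and 63.1). Tm7sf2, a sterol reductase, was at 519 in activated and 105 in naive cells, 4.93-fold higher.

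Ratios were smaller near the end of the pathway, with Sc5d as an exception. Ebp, the sterol isomerase, was at 1269 in activated and 760.1 in naive cells, 1.67-fold higher. Dhcr7, which reduces dehydrocholesterol to cholesterol, was at 548 in activated and 161.5 in naive cells, 3.39-fold higher. Sc5d, a sterol desaturase acting just before Dhcr7, was at 1436 in activated and 255 in naive cells, 5.63-fold higher. A second probe set was 2.20-fold higher, and the remaining one, at 101 in activated and 32.9 in naive cells, was not called, with a bound only.

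**Figure D1:**
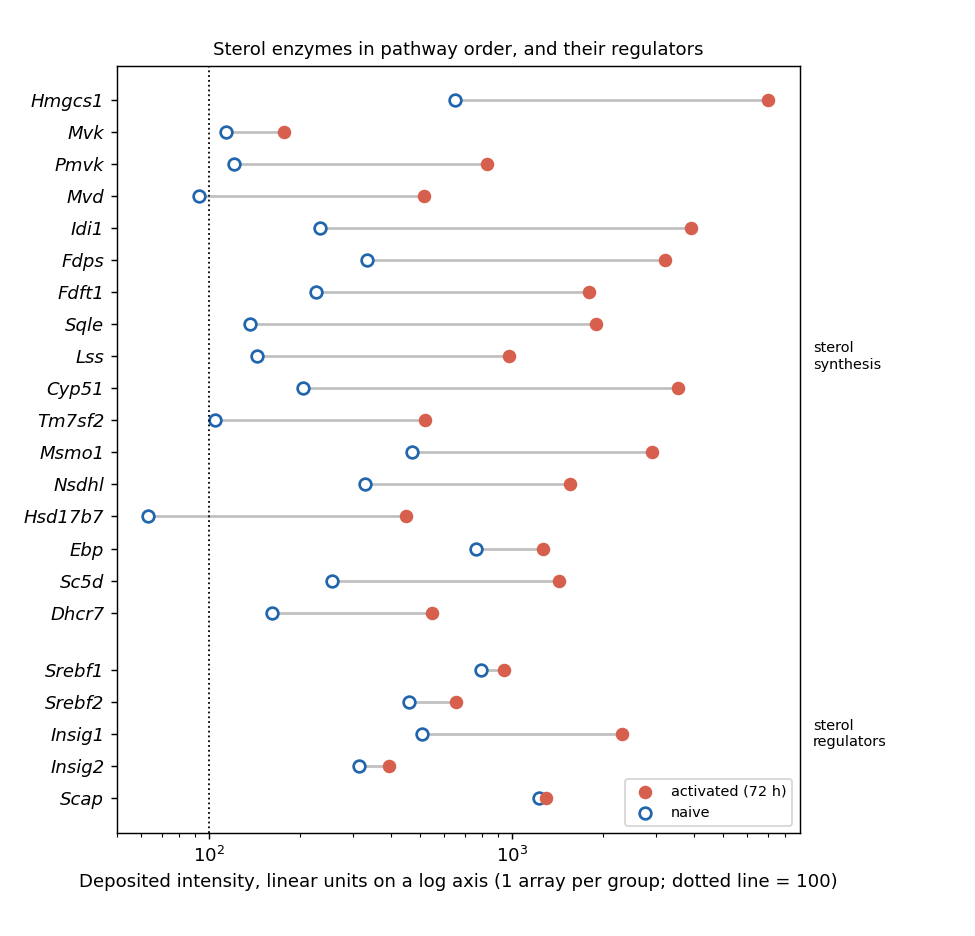
Deposited intensity (log axis, linear units) of each sterol enzyme in pathway order and of the regulators, with activated cells as filled red points and naive cells as open blue points, 1 array each. The 17 enzymes lie to the right in activated cells by 1.56-fold (Mvk) to 17.3-fold (Cyp51), whereas Scap, Srebf1 and Insig2 nearly overlap.

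The regulators differed far less than the enzymes they control. Of 5 measured, 2 were called higher and none lower. Their median log2 ratio was 0.32. Insig1, which retains SCAP in the endoplasmic reticulum and is itself a known SREBP target, was at 2312 in activated and 507 in naive cells, 4.56-fold higher. Insig2, its paralogue, was at 393 in activated and 315 in naive cells, and all 3 of its probe sets missed the rule, with log2 ratios from 0.07 to 0.45. Srebf2, which encodes the SREBP factor best known for sterol genes, was at 657 in activated and 457 in naive cells, 1.44-fold higher. That value lies just inside the rule, and its second probe set, at 686 and 248 in activated and naive cells, gave 2.76-fold. Srebf1, which encodes the form better known for fatty acid genes, was at 942 in activated and 794 in naive cells, and Scap at 1294 and 1232, neither past the rule. Insig1 was the only regulator at least 4-fold higher, and the arrays hold no measure of SREBP cleavage.

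Sterol efflux genes went the opposite way to synthesis. Both measured pumps were called lower in activated cells. Abca1, which loads cholesterol onto lipid-poor apolipoprotein, was at 74.7 in activated and 721 in naive cells, at least 7.21-fold lower and rank 47 from the lowest ratio. Its other probe sets lay under 100 on both arrays, at 24.5 and 6.46 in activated cells and at 95.6 and 58.3 in naive cells. Abcg1, which exports cholesterol to lipoproteins, was at 191.5 in activated and 1071 in naive cells, 5.60-fold lower and rank 78 from the lowest. A dimmer Abcg1 probe set, at 24.6 in activated and 134 in naive cells, missed the rule, with a bound only because its activated value lay under 100. Macrophages also express both pumps. All 4 MHC class II genes were called lower in activated cells as well. Of the 8 myeloid and dendritic markers, 2 were called lower, Lyz2 (21.8 in activated and 173 in naive cells) and Csf1r (345 and 642). Itgax was not called, and the others lay under 100 on both arrays. Among these, Cd14 was at 48.77 in activated and 48.25 in naive cells and Adgre1 at 51.7 and 42.1. The part of such cells in the pump values was not tested.

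Sterol transfer was represented by Stard4, which moves cholesterol between membranes. It was at 1523 in activated and 304 in naive cells, 5.00-fold higher, and all 3 of its probe sets were called higher, with log2 ratios from 2.32 to 3.20. Stard4 therefore lay with the synthesis enzymes and not with the pumps.

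Fatty acid synthesis genes were also higher in activated cells, with a smaller median ratio than the sterol enzymes. Of 10 measured genes, 9 were called higher, 3 of them at least 4-fold, and none was called lower. The median log2 ratio was 1.19, beside 2.63 for the sterol enzymes and 0.01 for all measured genes, and the difference between the lists was not tested. When a 2-fold difference was required, 5 of the 10 were called higher.

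The enzymes that lead to palmitate were each called higher. Acly, which makes cytosolic acetyl-CoA from citrate, was at 2240.2 in activated and 1472 in naive cells, 1.52-fold higher. Of its 4 measured probe sets, with log2 ratios from 0.31 to 1.17, 2 were called higher. Acaca, acetyl-CoA carboxylase, which commits acetyl-CoA to fatty acids, was at 891 in activated and 331 in naive cells, 2.69-fold higher. Fasn, fatty acid synthase, was at 2141 in activated and 1104 in naive cells, 1.94-fold higher by its only probe set.

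Of the 4 desaturases, Scd1, Scd2 and Fads1 had the highest ratios of the fatty acid synthesis genes. Scd1, a stearoyl-CoA desaturase that makes oleate, was at 1785 in activated and 57.5 in naive cells, at least 17.8-fold higher and rank 12 of all measured genes. Its other probe set was at 764 in activated and 15.5 in naive cells, so both were under 100 in naive cells. The paralogue Scd2 was at 7155 in activated and 1182 in naive cells, 6.05-fold higher, and all 3 of its probe sets were called higher. The paralogues are alike in sequence, and how far their probes share signal was not tested. Fads1 and Fads2 desaturate polyunsaturated fatty acids. Fads1 was at 469 in activated and 90.3 in naive cells, at least 4.69-fold higher. Fads2 was at 704 in activated and 377 in naive cells, 1.87-fold higher, and a second probe set, at 505 in activated and 13.2 in naive cells, was at least 5.05-fold higher. Its remaining probe set, at 117 in activated and 1 in naive cells, was not called.

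The elongases split by member. Elovl6, which extends palmitate, was at 741 in activated and 203 in naive cells, 3.65-fold higher, and its other measured probe set gave 1.57 beside 1.87 on the log2 scale. Elovl1, which extends very long saturated chains, was at 1452 in activated and 749 in naive cells, 1.94-fold higher, with 3 of 4 probe sets called higher. Elovl5, which extends polyunsaturated chains, was at 2211 in activated and 2799 in naive cells, the only one of the 10 fatty acid synthesis genes with a value below naive. Neither of its probe sets passed the rule, with log2 ratios of -0.34 and -0.17.

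Fatty acid binding and activation genes were all called higher, 4 of 4, with a median log2 ratio of 1.56. Fabp5, a carrier of long-chain fatty acids in the cytosol, was at 4516 in activated and 728 in naive cells, 6.20-fold higher, and its second probe set gave 3.28 beside 2.63 on the log2 scale. The acyl-CoA synthetases, which activate fatty acids with coenzyme A, had smaller ratios. Acsl3 was at 399 in activated and 82.4 in naive cells, at least 3.99-fold higher. Acsl4, which prefers arachidonate, was at 1863 in activated and 861 in naive cells, 2.16-fold higher, and its other probe sets were 2.61-fold and at least 5.96-fold higher. Acsl5 was at 2300.3 in activated and 1276 in naive cells, 1.80-fold higher.

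**Figure D2:**
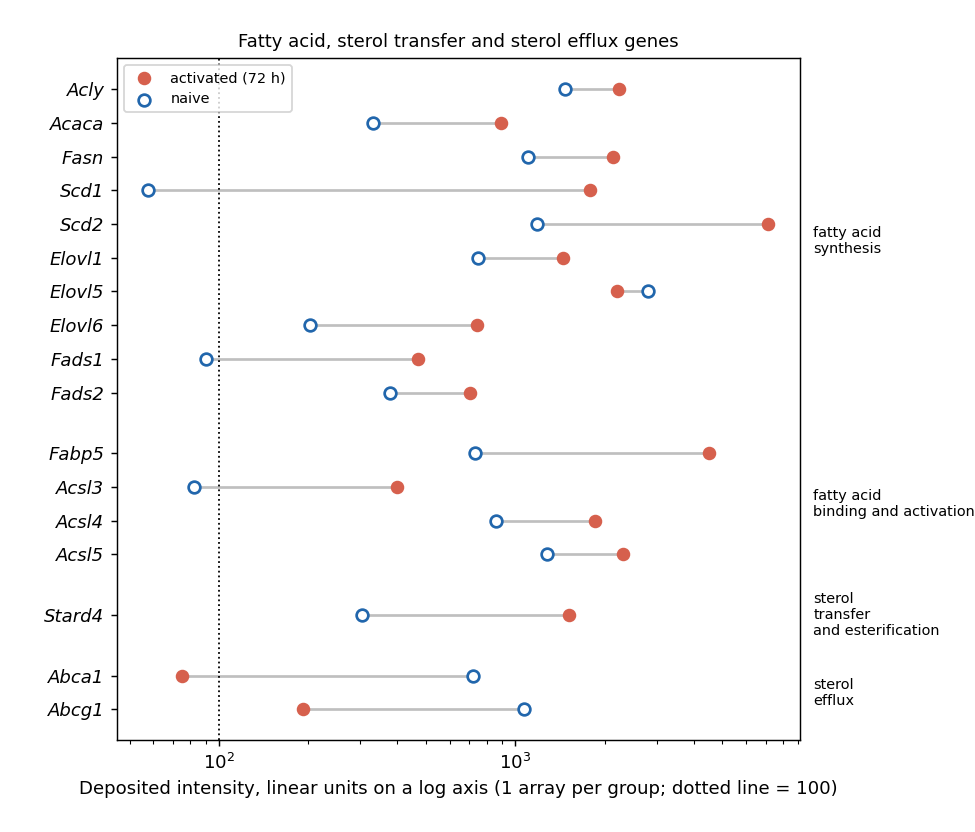
Deposited intensity (log axis, linear units) of fatty acid, sterol transfer and sterol efflux genes, with activated cells as filled red points and naive cells as open blue points, 1 array each. Abca1 and Abcg1 lie to the left in activated cells (74.7 and 191.5), Elovl5 slightly so (2211), and the other genes to the right.

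Counted by probe set, 76 of the 92 had at least 1 value of 100 or more. Of these 76, 59 were called higher, 2 lower and 15 neither, where 23.2% of all measured probe sets with a single gene were called higher and 19.2% lower. In sterol synthesis 28 of 31 measured probe sets were called higher and none lower, and in fatty acid synthesis 17 of 23. Of 23 genes with more than 1 measured probe set, none had probe sets on opposite sides of 0. Across all genes the log2 ratios of probe sets of the same gene spread with a standard deviation of 0.47. Probe sets of a gene share the RNA and are no replicates.

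**Figure D3:**
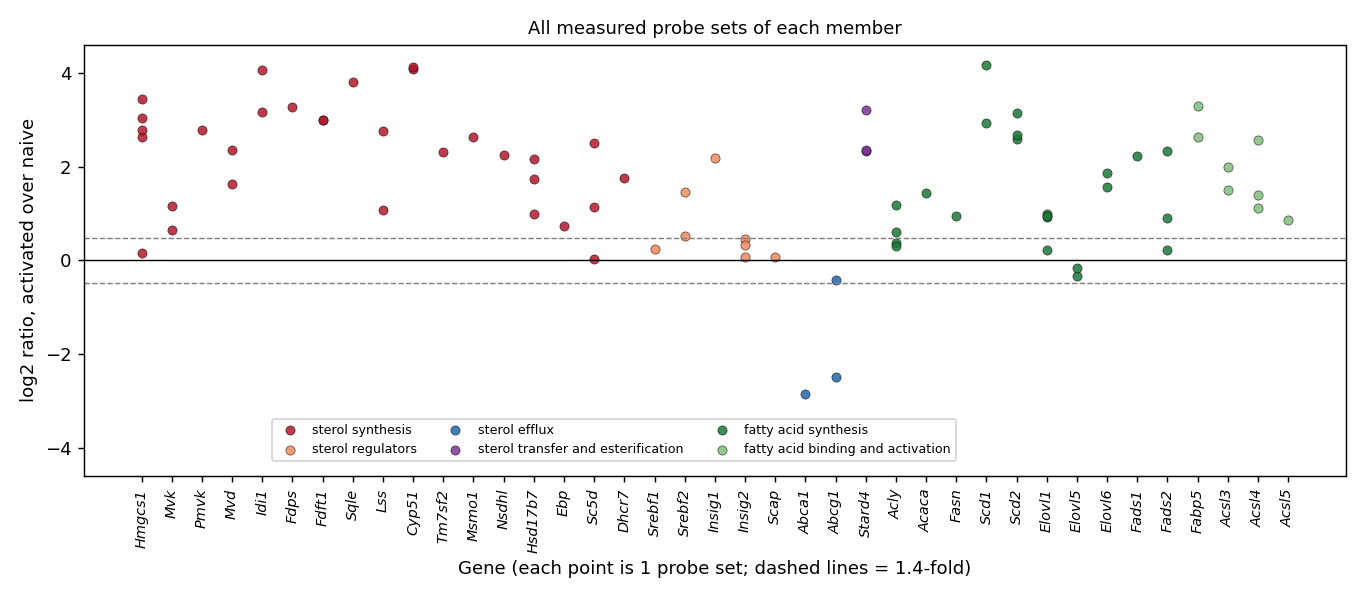
Log2 ratio of activated over naive cells for each measured probe set (points, 76 in all) of each gene, coloured by list, with dashed lines at 1.4-fold. A point whose lower array lay under 100 is a bound and may lie nearer to 0 than the intensities do. Probe sets of a gene share a side of 0 throughout.

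Other genes of the sterol pathway did not share the pattern of the synthesis enzymes. Of 11 measured further sterol genes, 2 were called higher and 4 lower, beside 23.7% and 20.6% of all measured genes. The median log2 ratio of the 11 was -0.36. Scarb1, a lipoprotein receptor that takes up cholesteryl ester, was at 722 in activated and 117 in naive cells, 6.15-fold higher, and all 3 of its probe sets were called higher. Lpcat3, a lysophospholipid acyltransferase known as an LXR target, was at 1280 in activated and 661 in naive cells, 1.94-fold higher. Mylip, an LXR target that marks lipoprotein receptors for breakdown, was at 67.7 in activated and 1908 in naive cells, at least 19.1-fold lower. Npc2, which moves cholesterol out of lysosomes, was at 2501 in activated and 5577 in naive cells, 2.23-fold lower, and Abca7, a lipid transporter, was 1.71-fold lower (519.5 in activated and 891 in naive cells). Mbtps1, the protease that makes the first cut in SREBP, was called lower by its brightest probe set, at 548 in activated and 823 in naive cells. Its other measured probe set missed the rule, with a log2 ratio of -0.28. Mbtps2, which makes the next cut, was at 438 in activated and 396 in naive cells and was not called. Nr1h3, which encodes an LXR receptor, lay under 100 on both arrays at 6.05 in activated and 23.9 in naive cells.

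Of 16 measured genes further along lipid synthesis, 3 were called higher and 3 lower, beside 23.7% and 20.6% of all measured genes. The median log2 ratio of the 16 was 0.18. Slc25a1, which exports mitochondrial citrate for Acly, was at 618 in activated and 215 in naive cells, 2.88-fold higher. Hsd17b12, a reductase of fatty acid elongation, was at 1519.5 in activated and 721 in naive cells, 2.11-fold higher, and Agpat2, which makes phosphatidic acid, was 1.63-fold higher (287 and 175). Acss2, which makes acetyl-CoA from acetate in place of citrate, was at 312 in activated and 817 in naive cells, 2.62-fold lower, and both of its measured probe sets were called lower. Elovl7, another elongase, was at 25.5 in activated and 194 in naive cells, at least 1.94-fold lower, and Lpin1, a phosphatidate phosphatase, was 1.74-fold lower (430.0 in activated and 747 in naive cells). The routes to cytosolic acetyl-CoA therefore differed, with Slc25a1 and Acly higher and Acss2 lower in activated cells.

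Fatty acid oxidation, the opposite process, had a median ratio closer to no difference than fatty acid synthesis. Of 12 measured genes, 2 were called higher and none lower, beside 23.7% and 20.6% of all measured genes. The median log2 ratio of the 12 was 0.32, beside 1.19 for fatty acid synthesis and 0.18 for the genes further along lipid synthesis. Of the 12, 9 were above their naive value, and the difference between lists was not tested. Acadl, a long-chain acyl-CoA dehydrogenase, was at 1960.2 in activated and 874 in naive cells, 2.24-fold higher, and Eci1, an isomerase for unsaturated chains, was 1.43-fold higher (401 and 281). Cpt1a, which admits fatty acids to mitochondria, was at 644 in activated and 507 in naive cells and missed the rule.

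**Figure D4:**
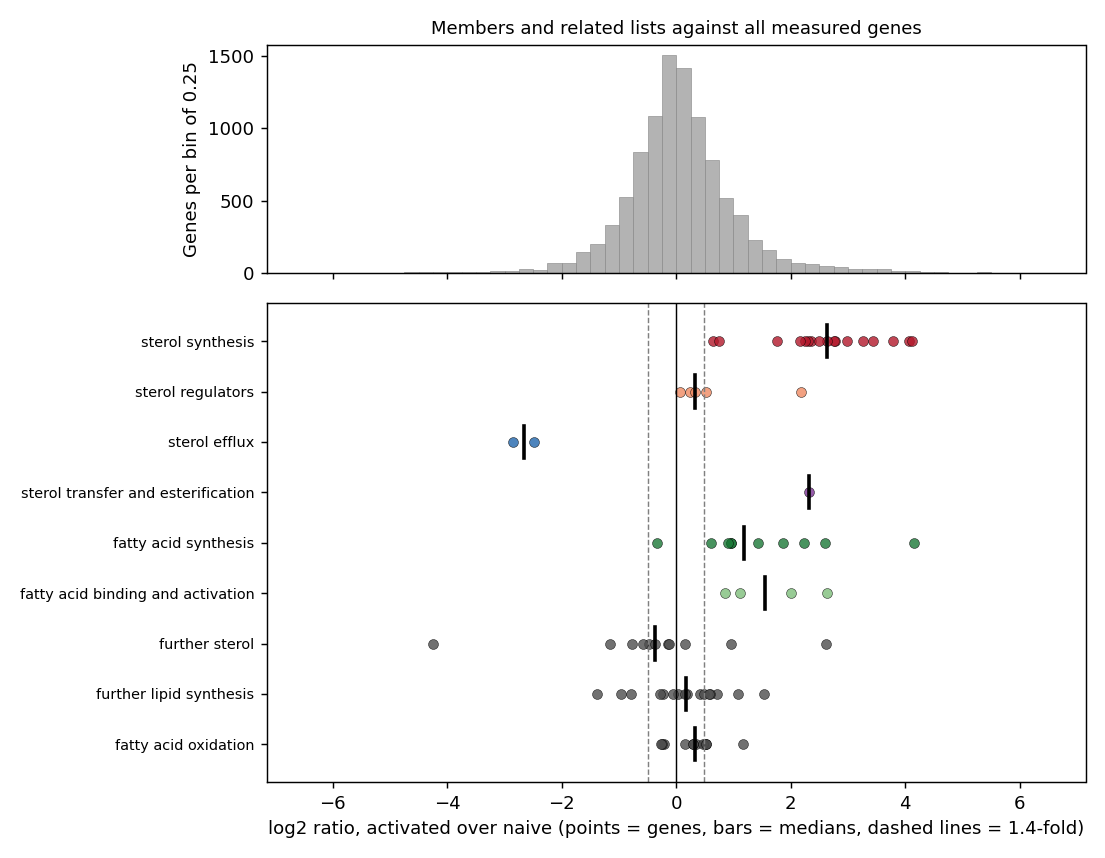
Top, number of measured genes (9842 in all) per bin of the log2 ratio of activated over naive cells. Bottom, the same ratio for each measured gene of each list (points) with the list median (black bars). Sterol synthesis has its median at 2.63 and fatty acid synthesis at 1.19, while the lists of further sterol genes, further lipid synthesis and fatty acid oxidation centre at -0.36, 0.18 and 0.32.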

How the data were processed

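Expression was measured on 2 Affymetrix mouse arrays, 1 of activated and 1 of naive CD8+ T cells. Linear intensities, 1 for each probe set, were deposited by the authors. By the series' design text they came from dChip's difference model of perfect match and mismatch probes and were normalized by the invariant set method, and GCOS 1.3, per the submitters' processing notes and design text, made detection calls, which were not used here. Such differences are unreliable near background, so values under 100 were raised to 100, and the lowest deposited intensity was 1.

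Of 45101 probe sets, 64 controls were left out, 34945 had 1 gene symbol, 932 several and 9160 none. For each of 18193 genes, the probe set brightest on average over the arrays stood for the gene. All 39 analysed genes kept their symbol in the RefSeq table of assembly GRCm38.p6. No build is named with the values, so only promoters carry coordinates.

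With 1 array per group no test was possible. The size rule keeps the parts of the study's rule that intensities allow. How often it calls a gene without a true difference, or misses a gene with one, was not tested. Alternatives tried were a minimum of 2-fold, a minimum difference of 200 units, floors of 50 and 200, quantile and median scaling, the median over probe sets, and leaving out probe sets marked _x_at, _s_at or _a_at. All genes of the 6 lists are named, and of other pathway lists up to 4 past the rule in each direction; Mbtps2, Nr1h3 and Cpt1a were added after their values were seen. Members and lists were chosen with earlier results of these data known. Some genes of the other pathway lists are not reported here. Promoters came from RefSeq's table without chromosome 18. Scripts ran in Python 3.11.15 with pandas 2.3.3 and numpy 2.4.6.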

Additional observations from a re-analysis of the deposited data

How the results depend on the processing

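No call changed direction under the 8 alternatives in the genes each could measure, which were 38 with a floor of 200, 35 without probe sets marked _x_at, _s_at or _a_at and all 39 otherwise, and none changed sign under quantile or median scaling. A fold minimum of 2 reduced the fatty acid synthesis genes called higher to 5 of 10, and over all genes the calls to 1193 higher and 904 lower, from 2334 and 2027. It removed 7 calls among the 39 genes, those of Ebp, Srebf2, Acly, Fasn, Elovl1, Fads2 and Acsl5. Srebf2 was also lost with a difference minimum of 200 and with quantile scaling, and Mvk was gained as higher with the median over probe sets and without probe sets marked _x_at, _s_at or _a_at. The sterol enzymes called higher numbered 15 to 17 over these settings, the pumps called lower stayed at 2, and the medians lay between 2.30 and 2.76 for sterol and between 1.09 and 1.43 for fatty acid synthesis. Single genes moved by more than the probe set spread of 0.47 (log2) where a floor of 50 or 200 changed the naive or activated value used, and with other probe sets, where among others Lss gave at least 1.07, Sc5d 1.13, Hmgcs1 2.63, Fabp5 3.28 and Abcg1 -1.45, the last averaged with a bound. No paired analysis was possible because each group was 1 array, and the number of arrays limits every value.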

Other observations

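Lipid genes outside the lists above were grouped into 6 further lists after the members' values had been seen. The counts below stand beside 23.7% of all measured genes called higher and 20.6% called lower. Phospholipid synthesis held 3 genes called higher and 3 lower among 14 measured, with a median log2 ratio of 0.03. Pcyt1a, rate-limiting in phosphatidylcholine synthesis, was at 480.5 in activated and 96.3 in naive cells, at least 4.81-fold higher by its brightest probe set. All 3 of its measured probe sets were called higher. Crls1, which makes the mitochondrial lipid cardiolipin, was 3.45-fold higher (614 in activated and 178 in naive cells) and Pcyt2, of phosphatidylethanolamine synthesis, 2.11-fold higher (599.5 and 284). Cds2 was 1.80-fold lower by its brightest probe set, although another of its probe sets was called higher, while Cdipt, which makes phosphatidylinositol, was 1.79-fold lower (1586 in activated and 2833 in naive cells) and the ethanolamine kinase Etnk1 1.75-fold lower (1517 and 2649). Isoprenoid branches of the mevalonate pathway include Nus1 and Dhdds, the subunits of the enzyme that makes dolichol precursors. By their brightest probe sets they were 2.29-fold and 2.25-fold higher. Of the measured probe sets, 3 of 5 for Nus1 (log2 ratios from -0.07 to 1.53) and 1 of 2 for Dhdds were called higher. Prenyltransferase genes went both ways. Fntb and Rabggta were at least 1.71-fold and 1.67-fold lower, whereas Rabggtb was 1.47-fold higher (1359 in activated and 925 in naive cells). Neither Fnta nor Pggt1b was called by its brightest probe set. The list had 3 of 11 measured genes called higher and 2 lower.

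Sphingolipid genes were called higher in 2 of 12 and lower in 4, with Sgms1, a sphingomyelin synthase, at 38.9 in activated and 357 in naive cells (at least 3.57-fold lower) and Asah1, acid ceramidase, 2.18-fold higher. Plin2, the coat protein of lipid droplets, was at 589 in activated and 157 in naive cells, 3.75-fold higher. Lipa, the lysosomal acid lipase that frees cholesterol from its esters, was at 391 in activated and 1261 in naive cells, 3.22-fold lower, and all 3 of its probe sets were called lower. These were the called members among 6 measured lipid droplet genes. In the oxysterol list 2 of 6 measured genes were called higher and 1 lower, and Ch25h, Cyp27a1, Cyp7b1 and Sult2b1, which make or modify oxysterols, lay under 100 on both arrays. Gpr183, a receptor for oxysterols, was at 463 in activated and 890.3 in naive cells, 1.92-fold lower. Lrp8, a lipoprotein receptor, was at 309 in activated and 41.99 in naive cells, at least 3.09-fold higher, the only one of 4 measured uptake genes called in either direction.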
